A study of Mus musculus with 4 samples.

Results

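The genes described are 10 markers of astrocytes, measured in mouse hippocampal area CA1 at 4 times after foot shock. Probe sets were chosen by name alone: each whose single gene symbol in the array's annotation was Gfap, Glul, Aqp4, Slc1a2, Slc1a3, Gja1, Gjb6, S100b, Aldoc or Apoe was taken. That gave 16 probe sets of 12488 on the array and 9 genes of 8251 with a symbol of their own. Slc1a3, the second glial glutamate transporter, had no such probe set and was not analysed here. Of the 16 probe sets, 14 lay above a floor of 100.8 intensity units on all 4 arrays, and each of the 9 genes had at least 1 of these. The other 2, 1 each for Apoe and Gjb6, were below the floor on every array.

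Total RNA was measured on 1 array at each of 1, 2, 4 and 6 h after the last shock. All animals were young male C57BL/6J mice that entered the new context 2 h before training, spent 2 min in it before each 1 s shock, and received 3 shocks of 0.5 mA. The labels call this condition shock alone and give no number of animals per sample. Per the labels the mice stayed in the chamber until 1 h after the last shock. Animals without shock were not analysed here, and comparisons are between times only. There are no replicates, so no difference below was tested and no p-value is given.

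Astrocytes surround synapses and blood vessels. They take up glutamate and potassium released by neurons, turn glutamate into glutamine, share ions and metabolites through gap junctions, and move water at the vessel wall. In the hippocampus they also supply lactate and lipoproteins to neurons, and their intermediate filament protein GFAP is the classical stain for them.

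Most of these markers read nearly the same at all 4 times, and those that handle glutamate, Glul and Slc1a2, differed most. Glul and Slc1a2 were also the dimmest of the 9, with mean intensities of 611 and 323, against 612 for Gjb6 and 23443 for Apoe. S100b, at 902, was dimmer than Aqp4, at 1094, but varied less. The part of brightness in these spans was not tested. From the least to the most variable, the highest array exceeded the lowest 1.08-fold for Apoe, 1.11-fold for Gja1, 1.13-fold for S100b, 1.19-fold for Gfap and 1.22-fold for Aldoc. It did so 1.28-fold for Gjb6, 1.39-fold for Aqp4, 1.55-fold for Slc1a2 and 1.96-fold for Glul. A limit of 0.32 on the log2 scale was used for counts of differences. Thus 4 of the 9 genes spanned at least that much, where 62.6% of 5018 genes above the floor on all arrays did, and 48.1% of those with a mean intensity of at least 500. At 1.5-fold the count was 2 of 9, beside 26.3% of all genes. The median span was 1.22-fold for the markers, 1.31-fold for all genes and 1.24-fold for the genes with a mean of at least 500. The share of all genes with a smaller span was 3.87% for Apoe and 93.5% for Glul.

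**Figure D1:**
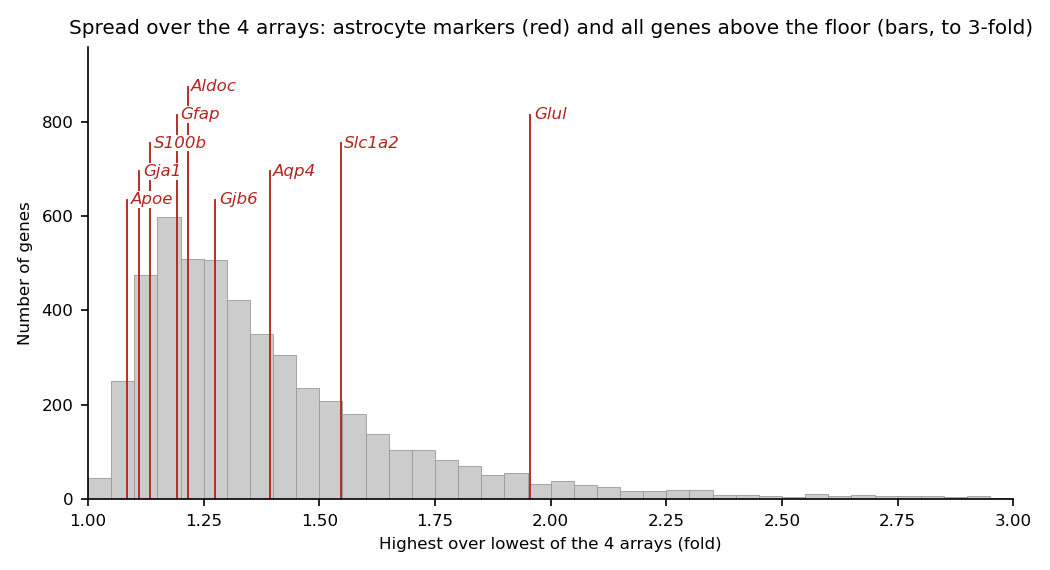
Fold between the highest and the lowest of the 4 arrays for the 9 astrocyte marker genes (red lines, each with its symbol) over the distribution of that fold for the 5018 genes above the floor on all arrays (grey bars, number of genes per 0.05 of fold, shown to 3-fold). Apoe, at 1.08, lies at the left edge and Glul, at 1.96, in the right tail.

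The enzyme and the transporter of glutamate clearance had different time courses. Glul encodes glutamine synthetase, which in brain is largely confined to astrocytes and joins ammonia to glutamate. Its probe set 161826_r_at read 804, 411, 569 and 661 intensity units in the order 1, 2, 4 and 6 h, the order used throughout. The 1 h array was highest and the 2 h array lowest, by 1.96-fold, with 4 and 6 h between. Its second probe set, 94852_at, read 530, 347, 445 and 293 in turn. Both probe sets were thus highest at 1 h and lower at 2 h than at 4 h, and they parted at 6 h, where the first was 1.61-fold above 2 h and the second 1.18-fold below it. Log2 differences between 1 h and 2 h were −0.97 and −0.61. For scale, the robust SD of such differences over 6442 probe sets above the floor was 0.28 for that pair of arrays and 0.26 to 0.31 over the 6 pairs. The suffixes f, g, i, r and s mark probe sets that depart from the array's usual design rules, and 161826_r_at, which stands for Glul because its mean was higher, is among these.

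Slc1a2 encodes the transporter GLT-1, which carries most glutamate out of the hippocampal synapse into astrocytes. It read 248, 383, 339 and 321. The 1 h array stood below the other 3, which ran from 1.30-fold to 1.55-fold above it. Its log2 differences from 1 h were 0.63, 0.45 and 0.37 at 2, 4 and 6 h, each larger than the robust SD of its pair of arrays, whereas the 3 later times differed among themselves by 0.26 at most. A single probe set, 96202_at, carries this gene, so no other reading of it was available. Glul and Slc1a2 therefore had opposite orders between 1 h and 2 h: Glul was highest where Slc1a2 was lowest.

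Glul and Slc1a2 differed most over the arrays and in opposite ways. The 250 bases before an annotated transcription start of each are therefore shown, with those of Gfap for comparison. They are RefSeq sequences on GRCm38.p6, 5′ to 3′ on the gene's strand, at chr1:153899679-153899928 (plus strand) for Glul, chr2:102706188-102706437 (plus strand) for Slc1a2 and chr11:102897201-102897450 (minus strand) for Gfap. Capitals mark matches to any of 4 motifs on either strand: the CCAAT box (CCAAT), the GC box (GGGCGG), the TATA box (TATAAA) and the half-site of the glucocorticoid receptor (AGAACA).
Glul: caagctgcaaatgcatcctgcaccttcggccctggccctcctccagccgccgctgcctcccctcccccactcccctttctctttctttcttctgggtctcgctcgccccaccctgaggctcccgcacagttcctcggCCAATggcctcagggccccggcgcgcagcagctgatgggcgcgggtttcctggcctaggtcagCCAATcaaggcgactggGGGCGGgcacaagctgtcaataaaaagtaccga
Slc1a2: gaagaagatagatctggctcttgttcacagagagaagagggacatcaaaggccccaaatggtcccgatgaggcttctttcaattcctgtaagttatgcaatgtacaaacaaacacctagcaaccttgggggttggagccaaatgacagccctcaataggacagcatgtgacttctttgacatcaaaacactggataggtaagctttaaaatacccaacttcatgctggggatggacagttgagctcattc
Gfap: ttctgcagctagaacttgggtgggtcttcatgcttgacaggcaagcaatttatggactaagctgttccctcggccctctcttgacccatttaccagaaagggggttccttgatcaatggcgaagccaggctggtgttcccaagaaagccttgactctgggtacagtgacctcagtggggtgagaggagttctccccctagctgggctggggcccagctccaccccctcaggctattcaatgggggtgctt
The Glul sequence held 2 CCAAT boxes, starting 113 and 50 bases before the start, and 1 GC box 33 bases before it. None of the 4 motifs was in the Slc1a2 or the Gfap window. Among 32851 promoters of the same length, 33.8% held a CCAAT box, 32.7% a GC box, 12.4% a TATA box and 16.1% the glucocorticoid half-site. CG dinucleotides numbered 15 in the Glul window, 1 in that of Slc1a2 and 2 in that of Gfap, where the median promoter had 6. These matches describe letters in a window and are not measured sites. Whether the starts shown are the main ones of these genes in CA1 was not tested. In all, windows at 11 starts of 8 of the 9 genes were read, and no window of Aqp4 was. Among the others, S100b had 2 CCAAT boxes, 1 of the 2 Aldoc windows a GC box, 1 of the 3 Apoe windows a glucocorticoid half-site and another 2 TATA matches, and those of Gja1 and Gjb6 none of the 4 motifs.

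Gfap, the intermediate filament gene that rises in reactive astrocytes, gave no single answer. Its probe set 94144_g_at read 1963, 2339, 2034 and 2070, highest at 2 h by 1.19-fold over 1 h. The other, 94143_at, read 259, 212, 243 and 261, lowest at 2 h and highest at 6 h, by 1.23-fold. The 2 h array thus carried the highest value of the one and the lowest of the other, and the signs of the differences matched in 2 of 6 pairs of times. None of the 6 differences of the first exceeded the robust SD of its pair, and only that between 1 h and 2 h did for the second. Over the 3399 probe sets with a mean of at least 500 the robust SD at 2 h over 1 h was 0.21. The first Gfap probe set, at 0.25 (log2), exceeded that. S100b, a calcium-binding protein of astrocytes, read 921, 879, 961 and 847. Its values differed by 1.13-fold at most, with 4 h highest and 6 h lowest.

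The water channel and the connexins were highest at 1 h in each of their probe sets above the floor. Aqp4 encodes aquaporin-4 of the astrocyte endfoot on blood vessels. Its probe set 102704_at read 1260, 1060, 1150.4 and 904, highest at 1 h and lowest at 6 h, by 1.39-fold. The second, 102703_s_at, read 127, 103, 113 and 114, just above the floor, with 2 h lowest. Their differences between 6 h and 1 h were −0.48 and −0.15 (log2), so only the first was larger than the robust SD of 0.28.

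Gja1 and Gjb6 encode connexin 43 and connexin 30, which form the gap junctions that couple astrocytes into a network. Gja1 read 5758, 5435, 5183 and 5224 with 100064_f_at and 449.8, 437, 447 and 406 with 100065_r_at. Its spread was small with both probe sets, 1.11-fold, and no pair of arrays differed by more than the robust SD. Gjb6 differed more. With 102571_at it read 677, 531, 642 and 599, lowest at 2 h, and with 94391_at 381, 335, 379 and 253, lowest at 6 h. The signs of the differences matched between its probe sets in 5 of 6 pairs, the exception being 6 h against 2 h, which was 0.17 (log2) with the first and −0.40 with the second. The remaining probe set, 161607_r_at, read 37.9 at most, under the floor.

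The metabolic and lipid genes varied little. Aldoc encodes aldolase C, the brain form of the glycolytic enzyme, found in astrocytes and in some neurons. It read 12167, 12926, 10636 and 11382, with 2 h highest and 4 h lowest. Apoe encodes apolipoprotein E, the main lipid carrier that astrocytes secrete. It read 24055, 23120, 24246 and 22351, a spread of 1.08-fold. Its second probe set, 161321_i_at, was below the floor at 13.3 to 68.7. No pair of times differed by more than the robust SD of all probe sets for Aldoc, Apoe or S100b. Over the 3399 probe sets with a mean of at least 500 it was 0.24 at 4 h over 2 h. Aldoc, at −0.28 (log2), exceeded that.

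**Figure D2:**
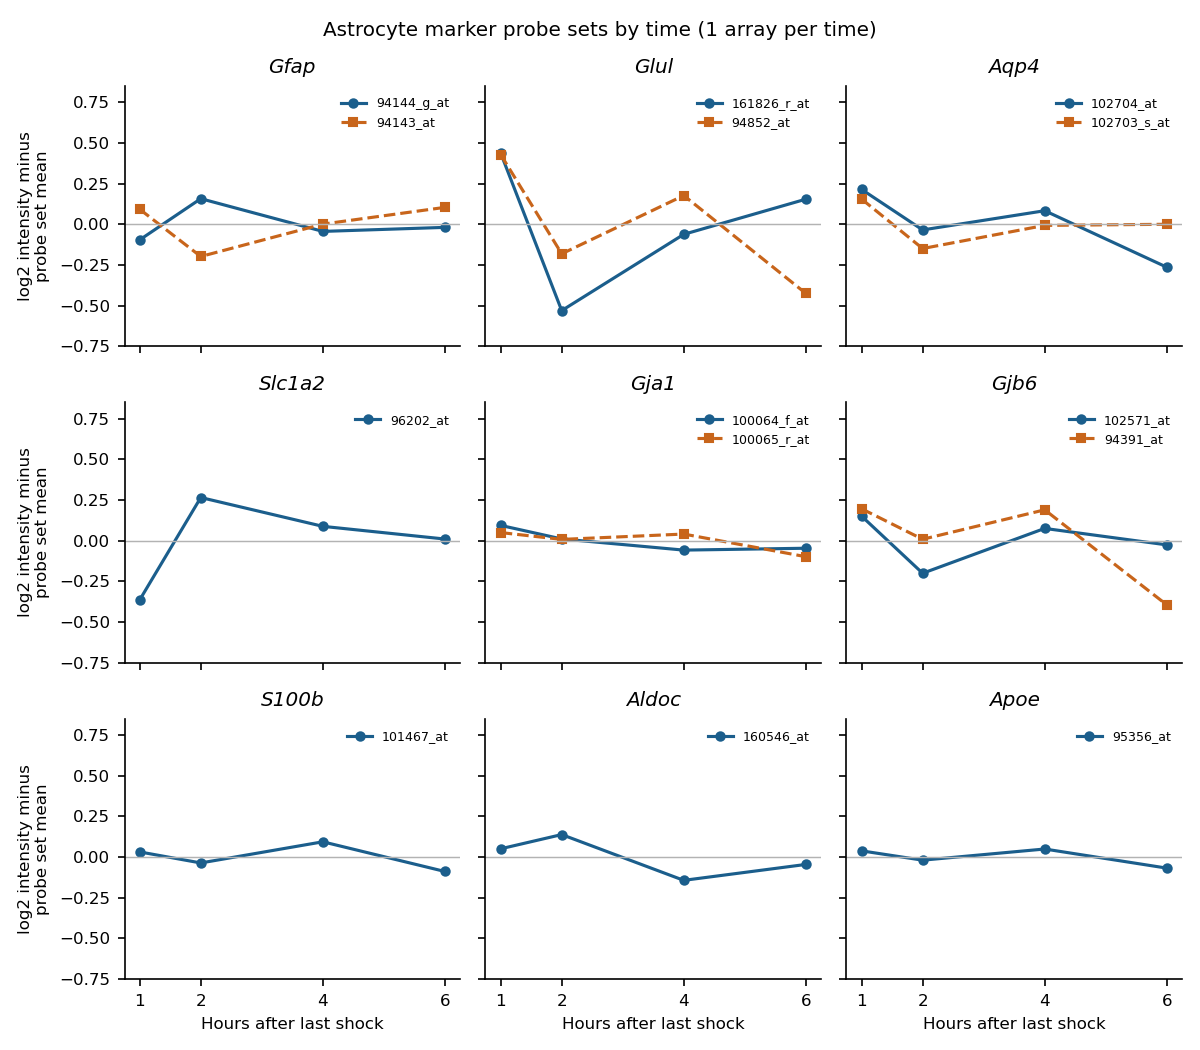
Log2 intensity of the 14 astrocyte marker probe sets above the floor, each minus its own mean over the 4 arrays, against hours after the last shock; circles and solid lines are the probe set that stands for the gene, squares and dashed lines the second one, and each point is 1 array. Both Glul probe sets are highest at 1 h and part at 6 h, the Gfap pair is opposed at 2 h, and Apoe, Gja1 and S100b stay near 0.

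Across the list, values were somewhat lower at 6 h than at 1 h. Of the 9 genes, 7 were lower and 2, Gfap and Slc1a2, higher, and the median log2 difference was −0.12. Over all genes, 2586 of 5018, or 51.5%, were lower and the median was −0.0095. Of the 14 probe sets above the floor, 11 were lower, or 78.6%, beside 52.0% of 6442. Most of these differences were small: past the limit of 0.32 only Aqp4 was lower, beside 16.3% of genes, and only Slc1a2 higher, beside 12.4%. These counts take the probe set that stands for each gene. The second probe sets of Glul and Gjb6 were lower by more, at −0.85 and −0.59, and that of Aqp4 by less, at −0.15. The median difference between 6 h and 1 h kept its sign under 7 alternatives, from −0.13 to −0.036, the smallest being after scaling to a common median. A floor at the 20th or 60th percentile, which could hardly move it, returned the main value of −0.12. The mean over probe sets did so too, and the deposited values nearly so. The spike-in controls were lower at 6 h as well, with a geometric mean 0.873 of that at 1 h, and the 5′ probe set of 18S ribosomal RNA read 1386 at 1 h and 383 at 6 h. Their part in the 6 h values was not tested. Fewer astrocytes in a sample and less of these RNAs per cell cannot be told apart in such tissue RNA.

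At 2 h compared with 1 h, 6 of the 9 genes were lower, beside 50.4% of all genes, and 3, Gfap, Slc1a2 and Aldoc, higher. The median was −0.068, beside −0.0028 over all genes. Past the limit of 0.32, Glul and Gjb6 were lower, beside 14.5% of genes, and Slc1a2 was higher, beside 14.3%. Over probe sets, 11 of 14 were lower at 2 h than at 1 h, where 50.1% of all probe sets were. The ratio of 3′ to 5′ signal of the control genes, a sign of how complete the labelled RNA is, was highest on the 2 h array. It was 2.70 there for actin, against 1.74 to 1.84 on the other arrays, and 4.82 for Gapdh, against 3.24 to 3.98. Their part in the 2 h values was not tested.

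The remaining pairs of times held few differences of that size. At 4 h compared with 1 h, Slc1a2 was higher, beside 12.4% of genes, and Glul lower, beside 15.1%, and the median over the 9 genes was −0.075. At 4 h compared with 2 h, Glul was higher, beside 13.8%, and no marker was lower, beside 16.9%. There 5 of 9 genes were higher by any amount, near the 48.8% of all genes, and the median was 0.069. At 6 h compared with 2 h, again Glul was higher, beside 14.7%, and no marker was lower, beside 17.5%, with a median of −0.057. At 6 h compared with 4 h, Aqp4 was lower, beside 12.8%, and no marker was higher, beside 12.4%, with a median of −0.078. The medians over all genes ran from −0.0087 to −0.0043 for these pairs. These pairs share arrays and are not independent of each other.

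**Figure D3:**
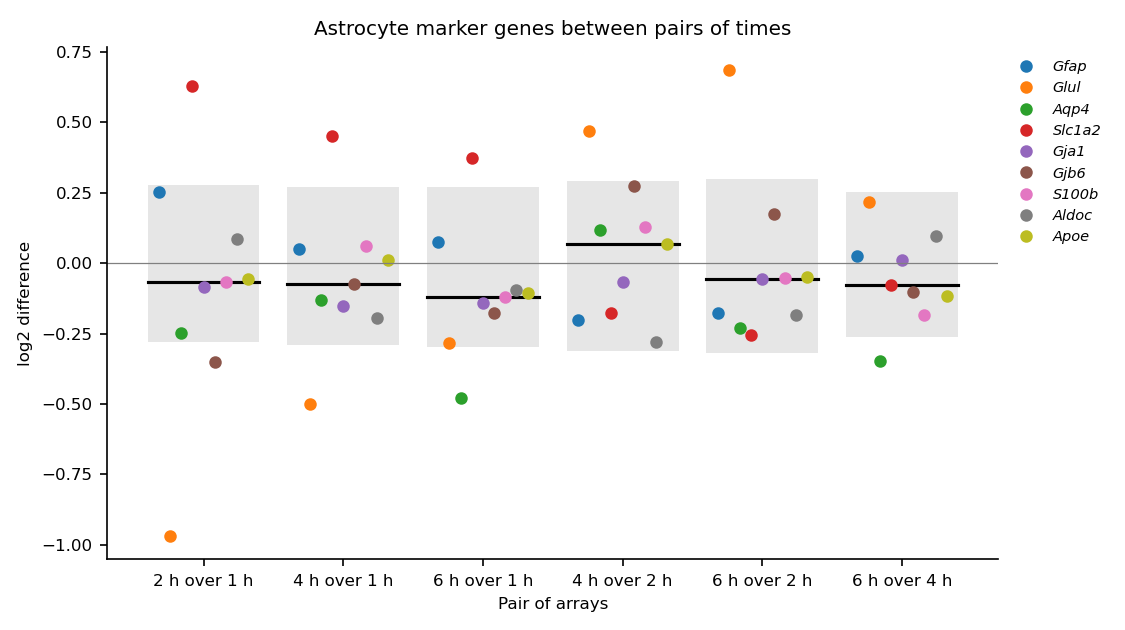
Log2 difference of the 9 astrocyte marker genes (coloured points, the probe set with the highest mean standing for each gene) between the 6 pairs of arrays; black bars are the medians of the 9 genes and grey bands the median ± 1 robust SD of all 6442 probe sets above the floor. Glul at 2 h over 1 h (−0.97) and at 6 h over 2 h (0.68) and Slc1a2 at 2 h over 1 h (0.63) lie farthest from the bands.

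By order of the arrays, 8 of the 14 probe sets were highest at 1 h, namely both of Glul, Aqp4 and Gja1 and the 2 of Gjb6 above the floor. Over all probe sets above the floor 24.8% were highest there. The lowest value fell at 6 h for 6 of the 14, beside 26.2% of all probe sets, and at 2 h for 4, near the 26.7% of all. The order 1 h, 4 h, 2 h, 6 h from high to low is named because it was the commonest among the 14, so its share is not a fair contrast. It occurred in 4, 94852_at of Glul, 102704_at of Aqp4, 100065_r_at of Gja1 and 94391_at of Gjb6, where 3.87% of all probe sets above the floor had it. Only 102704_at of these stands for its gene, and the other probe sets of the same genes had other orders. Apoe and S100b had the neighbouring order, with 4 h before 1 h, as 3.23% of all probe sets did. Both orders end in 2 h and 6 h, so that these 6 were lowest there follows from how they were picked.

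Genes with the course most like that of Glul were found by the largest absolute difference between log2 profiles over the 4 arrays, each centred on its mean, among 5009 other genes. Nearest was Rfc2, a replication factor subunit, at 774, 405, 576 and 620, within 0.055 (log2) of Glul at each time. Tmem97 (336, 189, 248 and 296), Ist1 (664, 366, 512 and 587), Ccs (528, 252, 389 and 442) and Ly6h (7773, 4165, 6080 and 6295) followed, within 0.076 to 0.097. Only these 5 lay within 0.1. This likeness rests on 161826_r_at alone, since the second Glul probe set was lowest at 6 h. The median profile of the 9 markers was nearly flat, at 0.051, −0.019, 0.049 and −0.045 from its mean, and 417 genes lay within 0.1 of it. Nearest were Ift81, Mrpl43, Zkscan14, Atp6v1a and Pgm1, within 0.029.

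A wider list of other astrocyte genes was read in the same way. Of 31 on the array, 27 lay above the floor throughout, and 16 of these were lower and 11 higher at 6 h than at 1 h. Their median difference was −0.049, and 51.5% of all genes were lower. Past the limit of 0.32, 7 were lower and 0 higher, beside 16.3% and 12.4% of all genes. Of the 27, those with the widest span were Mertk, a receptor for engulfment, at 226, 369, 220 and 157, Fgfr3, a growth factor receptor, at 173, 355, 222 and 205, and Slc4a4, the sodium bicarbonate transporter, at 597, 624, 471 and 367. Each of these 3 was highest at 2 h, where Glul was lowest with the probe set that stands for it. The list as a whole did not share this. Against the mean of the other times, 12 of the 27 were higher at 2 h and 15 lower, with a median of −0.042. Of all genes 51.6% were higher. Of 29 reactive astrocyte genes on the array, 11 were above the floor throughout, where 5018 of all 8251 genes were. Another 11 were below it on all 4 arrays. Between 6 h and 1 h, 6 of the first 11 were higher, beside 48.5% of all genes, and 5 lower. The median was 0.0089. Timp1, a protease inhibitor, read 617, 658, 325 and 443, and Nes, which encodes nestin, 113, 209, 186 and 171.

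Partners of the markers gave the following values. Among 11 genes of glutamate and glutamine handling above the floor, Glul and Slc1a2 included, 9 exceeded their 1 h value at 4 h, beside 49.4% of all genes, with a median difference of 0.12, and 4 did so at 6 h, beside 48.5%, with −0.028. Slc1a6, a neuronal glutamate transporter, read 171, 152, 246 and 233, highest at 4 h. Of 12 connexin and junction genes on the array 6 were above the floor, and 5 of these, Gja1 and Gjb6 among them, were lower at 6 h than at 1 h, beside 51.5% of all genes. The median was −0.19. Gja5, the vascular connexin 40, read 220, 166, 199.9 and 138, and Gjb5 148, 158, 180 and 110. Both were lowest at 6 h.

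Genes of lipoprotein transport were listed with Apoe, which read −0.11 (log2) at 6 h over 1 h, that is lower. Of 11 above the floor, Apoe included, 7 were higher at 6 h, beside 48.5% of all genes, and the median was 0.11. Apod, a lipocalin of glia, read 900, 1180, 1416 and 1339, lowest at 1 h, and Lpl, the lipoprotein lipase, 371, 377, 354 and 470. Intermediate filament genes were mostly higher at 2 h than at 1 h, 9 of 10 with a median of 0.28, beside 49.6% of all genes, and Gfap was among them at 0.25 with its first probe set. Nefm, a neurofilament gene of neurons, read 167, 466, 368 and 232 and had the widest span of that list among genes above the floor throughout, 2.79-fold. Among the perivascular genes listed with Aqp4, Dtna, a dystrophin partner, read 305, 250, 200 and 324, and Lama2, a laminin of the vessel wall, 137, 242, 187 and 124. Of 12 on the array 5 were above the floor throughout, where 5018 of all 8251 genes were. Among the S100 genes above the floor on all 4 arrays, S100a3 at 208, 246, 173 and 220 had the widest span, 1.42-fold. Among the genes of glycogen and energy use above it on all 4, Pdk4, a regulator of pyruvate use, had it, at 217, 325, 206 and 201, 1.62-fold.

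**Figure D4:**
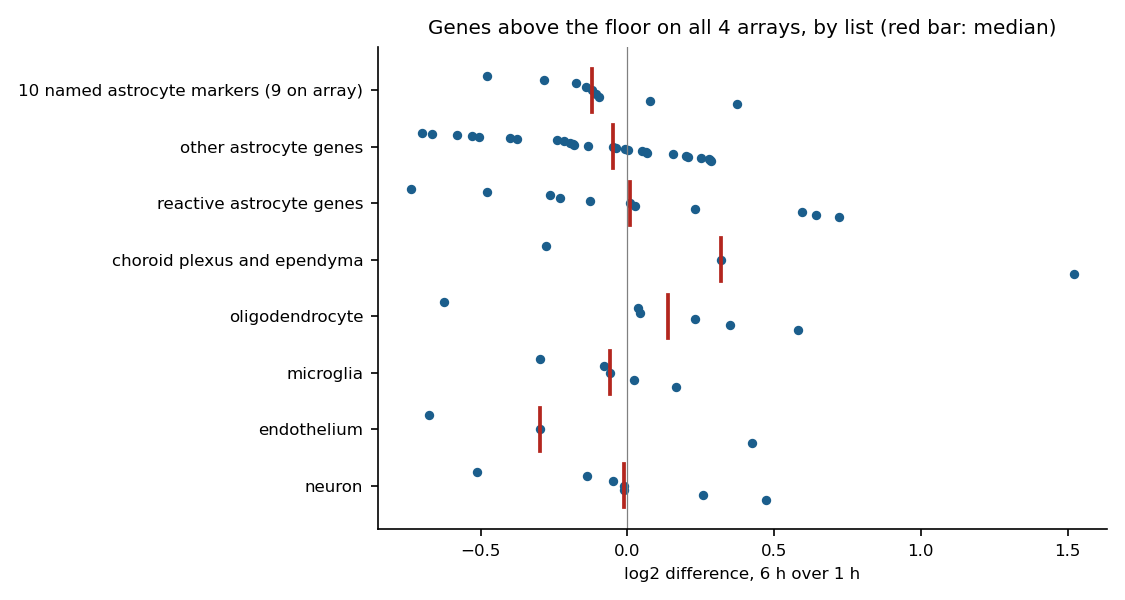
Log2 difference between 6 h and 1 h for the genes above the floor on all 4 arrays (points) in the astrocyte lists and in lists of markers of other cells, with the median of each list as a red bar. The 9 markers have a median of −0.12 and the 27 other astrocyte genes −0.049.

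Markers of other cells in the same tissue differed between the arrays too. The choroid plexus and ependyma list (6 of 9 on the array) summed to 1040 to 1288 intensity units at 1, 2 and 4 h and to 6016 at 6 h. Most of the 6 h sum was Ttr, which read 4482 against 89.9 to 198. Of the 3 genes above the floor throughout, Kl and Igfbp2 were highest at 6 h, at 508 and 426. The third, Foxj1, was lowest there, at 244 against 275 to 296. Apoe, S100b, Aqp4 and Gja1 are also made by cells of choroid plexus or ependyma. With the probe set that stands for each gene, Apoe, S100b and Aqp4 had their lowest value at 6 h and Gja1 was 1.10-fold lower than at 1 h. The second Aqp4 probe set was lowest at 2 h. Endothelial markers (6 on the array) summed to 1219, 969, 1052 and 811, lowest at 6 h as the first Aqp4 probe set was. Of the 3 above the floor throughout, Flt1 and Cldn5 were lowest at 6 h, at 214 and 320, and Kdr was highest there, at 174. Pecam1 was above the floor at 1 h only and Tek on no array. Oligodendrocyte markers summed to 22070 to 23983, microglial ones to 5431 to 6040 and neuronal ones to 38428 to 44767. The 9 astrocyte markers summed to 47852, 47083, 45762 and 44360. Most of each sum was Apoe and Aldoc, which read 24055 and 12167 at 1 h and 22351 and 11382 at 6 h. The part of cell composition in the values of the astrocyte genes was not tested.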

How the data were processed

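The deposited table holds a linear intensity per probe set for each of 4 Affymetrix MG-U74Av2 arrays; the authors had brought the arrays to a common level, as the values show (trimmed means near 500), and no source used here states the software or detection calls. Each array was scaled to a common trimmed mean (2% left out at each end, 66 controls left out; factors 0.999 to 1.001). Values under the 40th percentile, 100.8, were set to that floor for log2 values; printed intensities are before the floor. Gene names came from the platform's annotation, in which, controls aside, 10833 probe sets had 1 symbol. The probe set with the highest mean stood for a gene. With 1 array per time the spread between replicates is unknown, and their number limits the precision. The robust SD is 1.4826 times the median absolute deviation of log2 differences between 2 arrays.

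The members and lists were chosen with earlier results of these data known. Named genes were all member probe sets, among the 3 widest spans of each list, and the 5 nearest profiles to Glul and to the median profile; control probe sets and Ttr served as checks. Pecam1 and Tek were named after their values were seen. The alternatives were the values as deposited, quantile normalization, a common median, a floor at the 20th or 60th percentile, the mean over probe sets, a 1.5-fold limit, omission of genes shared with choroid plexus, omission of each array, and, chosen after seeing the data, plain probe sets alone. The steps were tested on simulated data. Values were computed with pandas 2.3.3 and NumPy 2.4.6 in Python 3.11.15 and drawn with matplotlib 3.10.9.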

Additional observations from a re-analysis of the deposited data

How the results depend on the processing

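No paired analysis was possible because each time has 1 array. Scaling to a common median shifted all probe sets by 0.12 (log2) at 6 h over 2 h and 0.084 at 6 h over 1 h, after which 7 of the 9 markers fell short of their 1 h value at 6 h (6 after quantile normalization). Under the common median the list median at 6 h over 2 h turned from −0.057 to 0.060 and that at 6 h against the other times from −0.061 to 0.012, and Glul at 6 h over 2 h, 0.68 with the probe set that stands for it, was −0.24 with plain probe sets alone. Without Apoe, Aqp4, Gja1 and S100b the list median against the other times moved to 0.18 at 2 h and −0.058 at 4 h. The 4 genes that spanned 0.32 (log2) became 2 with the mean over probe sets and 2 at a limit of 1.5-fold. For Gjb6 and Apoe that mean takes in a probe set held at the floor on every array, which lessens their differences. The number lower at 6 h than at 1 h, 1, became 2 with plain probe sets and 0 at 1.5-fold. With each other array left out in turn, the list median against the other times ranged from 0.053 to 0.13 at 1 h, −0.063 to 0.055 at 2 h, −0.0064 to 0.093 at 4 h and −0.077 to −0.064 at 6 h. All 180 differences of single genes recomputed under other scalings and floors stayed within 0.32 (log2) of their main value, and 241 of 248 did when other choices of probe set were included. Most of the 180 could hardly have moved so far. The deposited values were nearly the scaled ones, a common median shifts all genes of a pair alike, by at most 0.12, and the floors changed Slc1a2 alone. The depth limit is the floor: Apoe and Gjb6 each had a probe set under it on all 4 arrays.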
